A study of Coregonus lavaretus with 13 samples.

Results

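Among the putative long non-coding RNAs (lncRNAs) of whitefish liver, 140 contigs were lower in MC-LR-exposed fish than in control fish on days 1 and 6 of exposure and were not listed on day 9. They were chosen from the authors' tables of differentially expressed contigs: a member is listed for days 1 and 6, is absent from the table of day 9, and has a mean raw count in the exposed fish below that of the PBS fish on both days. The tables hold 1100, 3866 and 2543 contigs for days 1, 6 and 9, and 4729 contigs in all, of which the members are 2.96%. Of the 482 contigs lowered on both day 1 and day 6, the members are 29.0%, and the other 342 were also listed, and lowered, on day 9.

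The study followed liver injury by microcystin-LR (MC-LR) in juvenile European whitefish (Coregonus lavaretus, Rutki strain). The PBS_1d group holds 4 fish sampled 1 day after an intraperitoneal injection of phosphate-buffered saline, the solvent of the toxin. The MC_1d, MC_6d and MC_9d groups hold 3 fish each, sampled on days 1, 6 and 9 after an injection of 100 μg MC-LR per kg of body mass, which was given again after 7 days, that is, before the sampling of day 9. Each fish gave 1 liver library. The same 4 PBS fish of day 1 are the controls on every day and the groups were held in separate tanks. On day 1 the toxin and the tank cannot be told apart. On day 6 the toxin, the time since injection and the tank cannot be told apart. The contigs carry no gene names, so the liver identity of the samples was not checked against marker genes here. In whole liver, fewer cells of a type and less RNA per cell cannot be told apart.

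Long non-coding RNAs are transcripts without a recognisable protein-coding frame, and those in a poly(A)-selected library such as these carry a poly(A) tail like mRNAs. They can act in the nucleus on chromatin and splicing or in the cytoplasm on mRNA stability and translation, and many are expressed in few tissues and at low levels. MC-LR is a cyanobacterial hepatotoxin that enters hepatocytes through organic anion transporters and inhibits the protein phosphatases PP1 and PP2A, which disturbs the cytoskeleton and can kill the cell. The contigs were assembled de novo with Trinity, whose identifiers name a component (DN and c), a gene (g) and an isoform (i). No function, genome position or name is known here for any of the 140 members, and their sequences were not used here.

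Levels are normalized counts, that is, read counts divided by the authors' size factors, with the factors of the later tables brought to the scale of day 1 through the 4 PBS fish. The contigs of the day 1 table hold between 109901 and 231470 reads per fish, and those of the day 6 table between 979744 and 2100955. The size factors ranged from 1.02 to 1.12 in the PBS fish, from 0.83 to 1.19 in MC_1d and from 1.18 to 1.30 in MC_6d. A contig without reads in a group of 3 fish could have a mean of up to 1.01 normalized counts on day 1 and 0.813 on day 6, the level of 3 reads over the group. These limits, and the 95% intervals given below for ratios that rest on 1 to 3 reads, cover counting error only.

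Taken as a sum over the 140 members, the lncRNAs made up 20109, 18837, 23547 and 24295 normalized counts in the 4 PBS fish. The sums were 1663, 2336 and 1779 in the MC_1d fish and 1081, 887 and 994 in the MC_6d fish. Exposed and control fish were thus far apart, and the 3 fish of day 6 all lay below the 3 fish of day 1. The sum is weighted to abundant members, and the largest held 14.4% to 17.5% of it in the MC_1d fish. Taken singly, 77 members had a lower mean on day 6 than on day 1 and 47 a higher one, with a median log2 difference of -0.26. Scaling libraries by their clean reads instead would raise day 6 against day 1 by 0.49 on the log2 scale. The order of the sums was not examined under that scaling. The group means were 21697 ± 2638 (SD, n = 4) in PBS_1d, 1926 ± 360 (SD, n = 3) in MC_1d and 987 ± 97.4 (SD, n = 3) in MC_6d, which is 11.3-fold lower on day 1 and 22.0-fold lower on day 6. The rule used these contrasts, so they describe the members and carry no test.

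**Figure D1:**
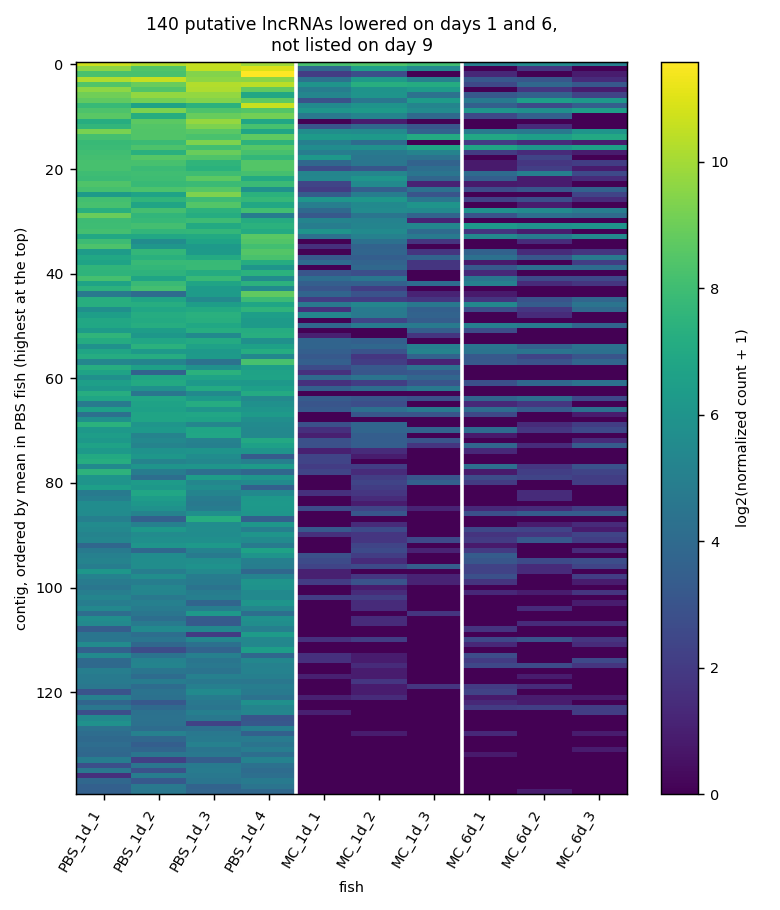
Levels of the 140 members in 10 fish, as log2(normalized count + 1). Rows are contigs ordered by their mean in the PBS fish and columns are fish, with white lines between the PBS fish, the MC-LR fish of day 1 and those of day 6. The lower rows of the exposed fish are largely dark, with between 29 and 69 members without a read in each exposed fish and none in the PBS fish.

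The median member had a mean of 76.6 normalized counts in the PBS fish, and the members ranged from 15.1 to 1330 with quartiles of 33.7 and 184. The medians in the exposed fish were 3.61 on day 1 and 1.32 on day 6. The median log2 ratio to PBS, with 0.5 added to each group mean, was -4.25 on day 1 and -5.19 on day 6. With contigs without reads set at their limit it was -4.28 and -5.07. All 140 members had every exposed fish below every PBS fish on both days, whereas this held for 49.6% of the contigs in the day 1 table and 64.6% of those in the day 6 table. Nothing is read from this difference, since the rule fixed the direction. By edgeR's quasi-likelihood test, 50.2% of the day 1 table and 66.1% of the day 6 table were lower in the exposed fish. These are 552 and 2555 contigs, the same numbers as were lower by raw means. The tables hold only contigs that passed the authors' test on the same fish, so these shares give the split by direction only.

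The authors' test and the rule favour large falls, so the size of the loss was largely set by the choice of members. The fold below PBS was at least 4 for all members but 1 on day 1 and 3 on day 6, leaving aside those without reads. The member nearest to no change on both days was TRINITY_DN108894_c4_g1_i1, named below without its prefix like the other contigs. Its normalized counts were 286, 344, 308 and 414 in the PBS fish, 78.8, 74.6 and 135 in MC_1d and 123, 90.9 and 125 in MC_6d. Even here the exposed and control fish did not overlap, with levels 3.51-fold lower on day 1 and 3.0-fold lower on day 6. Its ratio of mean raw counts, the quantity of the rule, was 0.254 on day 1 and 0.384 on day 6. On the other side of the rule, among contigs listed on days 1 and 6 and not on day 9, the raw ratios nearest to 1 were 2.88 for DN113614_c2_g1_i8 on day 1 and 3.43 for DN79744_c4_g1_i2 on day 6. Contigs nearer to 1 were not to be expected, since the tables list only contigs that differed from PBS in the authors' test.

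The 6 members with the highest PBS levels held 28.2% of the summed PBS level, and the 70 lowest members held 12.0%. The most abundant, DN78621_c4_g5_i3, had 1662, 1202, 1524 and 932 normalized counts in the PBS fish, 292, 335 and 261 in MC_1d and 30.8, 45.9 and 31.4 in MC_6d. It fell in 2 clear steps without overlap of any groups. Its group means were 1330 ± 328 (SD, n = 4), 296 ± 37.5 (SD, n = 3) and 36.0 ± 8.55 (SD, n = 3), so that it was 4.49-fold below PBS on day 1 and 36.9-fold below on day 6.

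DN114523_c1_g1_i1 had 756, 342, 1444 and 1919 normalized counts in the PBS fish, 14.5, 93.1 and 42.2 in MC_1d and 0, 2.55 and 0 in MC_6d. Of the exposed fish of day 6 only fish 2 had reads, 3 in number. DN109362_c4_g1_i1 had 348, 495, 1210 and 1333 normalized counts in PBS_1d, 62.2, 153 and 140 in MC_1d and 4.61, 13.6 and 8.26 in MC_6d. DN87677_c5_g6_i3 had 793, 344, 1144 and 429 in PBS_1d, 29.0, 60.4 and 80.9 in MC_1d and 0, 2.55 and 0.826 in MC_6d. In both of these, as in DN114523_c1_g1_i1, every fish of day 6 lay below every fish of day 1. DN109444_c2_g5_i1 had 1179, 1522, 787 and 756 normalized counts in PBS_1d, 19.7, 78.8 and 32.6 in MC_1d and 8.46, 7.64 and 1.65 in MC_6d, again without overlap between the days.

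DN81567_c9_g4_i1 differed from the other 5 in its control fish. Its normalized counts were 303, 302 and 695 in PBS fish 1 to 3 and 3059 in PBS fish 4, and then 3.11, 5.87 and 0 in MC_1d and 1.54, 0 and 0.826 in MC_6d. It had nearly gone by day 1, at a mean 364-fold below PBS, and PBS fish 4 alone held 70.2% of the control level. Its 3 reads on day 6 gave a ratio to PBS of 1383 (95% counting interval 468 to 6641).

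**Figure D2:**
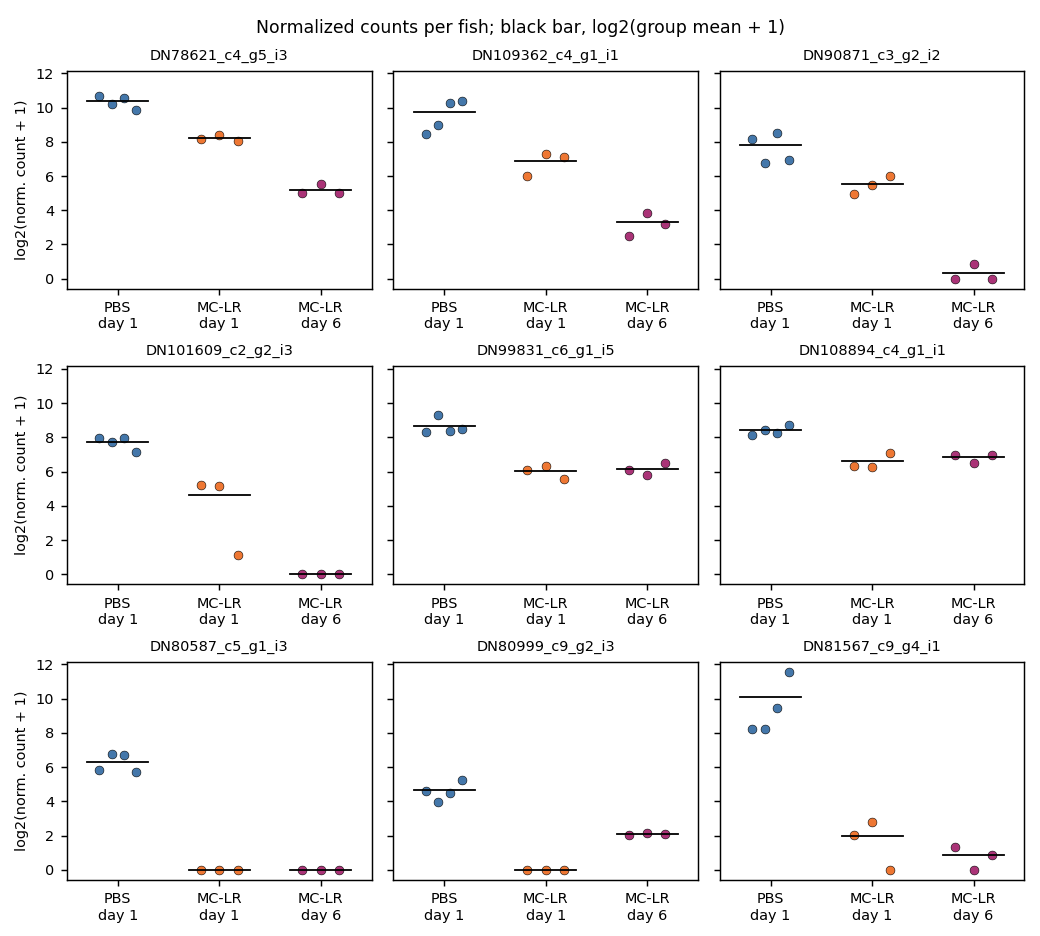
Normalized counts of 9 named members per fish, on a log2(normalized count + 1) scale, with a black bar at the group mean on the same scale. The upper row and DN101609_c2_g2_i3 fell further between days 1 and 6, DN99831_c6_g1_i5 and DN108894_c4_g1_i1 stood at similar levels on both days, DN80587_c5_g1_i3 had no read on either day, DN80999_c9_g2_i3 had reads on day 6 only, and DN81567_c9_g4_i1 was highest in PBS fish 4.

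The contrast of day 6 with day 1 within exposed fish was not used by the rule and shares no control fish between its sides, so it was tested, on all 679 contigs listed on both days. In edgeR's quasi-likelihood test at a Benjamini-Hochberg adjusted p under 0.05, 33 of the 140 members (23.6%) were lower on day 6, 1 (0.714%) was higher, and 106 did not pass. Over all 679 contigs, raised ones included, 21.2% were lower and 4.71% higher, so the share of members called lower was near the background. Of the 342 contigs lowered on days 1, 6 and 9, 26.0% were lower and 0.877% higher, so few calls upward were not particular to the members. The shares depend on depth: 51 members and 156 of all contigs had at most 10 reads in the 6 exposed fish. Among contigs with more reads, 32 of 89 members (36.0%) and 136 of all 523 (26.0%) were called lower. For the contigs lowered on days 1, 6 and 9 it was 82 of 237 (34.6%). No difference between these shares was tested. Scaling by TMM, which moves the median of all contigs to -0.39 on the log2 scale, changed the split over all contigs from 144 lower and 32 higher to 107 lower and 44 higher. With the authors' size factors the median log2 difference was -0.79 over all contigs and -0.26 over the members. With libraries scaled by their clean reads it was -0.34 and 0, and with TMM -0.39 and 0. All 3 fish of day 6 lay below all 3 fish of day 1 in 28 members (20.0%, against 22.5% of all contigs) and above them in 3 (against 8.69%). Among the 342 contigs lowered on all 3 days, these counts were 90 (26.3%) and 6. The mean of day 6 was below that of day 1 in 77 members and above it in 47, and 16 had no read on either day. The gap between these counts narrowed with another scaling: with libraries scaled by their clean reads, which moves the contrast of day 6 with day 1 by 0.49 on the log2 scale, the counts became 65 and 59, and 23 members were called lower.

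Among the 33 members that fell further, the median level was 248 normalized counts in the PBS fish (range 34.6 to 1330), 16.9 on day 1 (2.16 to 296) and 1.05 on day 6 (0 to 36.0). They include 5 of the 6 members with the highest PBS levels and 13 of the top 20. A fall between the days can be seen only where reads were left on day 1. Of the 33, 32 had more than 10 reads in the 6 exposed fish, so abundance and detection cannot be told apart here. In 26 of the 33 no fish of day 6 reached a fish of day 1, which the call on the same fish already favours. For 10 of the 33 no read was left on day 6. For 17 with more than 3 reads on that day, the fold between the days ran from 4.87 to 50.5, with a median of 8.40.

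For DN78621_c4_g5_i3 the difference between the days was -3.04 ± 0.55 (SE) on the log2 scale, with an adjusted p of 0.000439 in edgeR, and all 3 fish of day 6 were lower. DN87677_c5_g6_i3 had a log2 difference of -5.55 ± 0.90 (SE; adjusted p = 0.00011, edgeR). The ratio of DN114523_c1_g1_i1 between the days was 58.8 with a counting interval of 22.2 to 323 (adjusted p = 0.000466, edgeR). For DN109362_c4_g1_i1 the log2 difference was -3.74 ± 0.70 (SE; adjusted p = 0.000517, edgeR), and for DN109444_c2_g5_i1 it was -2.86 ± 0.70 (SE; adjusted p = 0.00398, edgeR). DN81567_c9_g4_i1, with 10 reads on day 1 and 3 on day 6, did not pass (adjusted p = 0.321, edgeR).

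Other members with small p in this contrast were less abundant in the control fish. DN90871_c3_g2_i2 had 291, 107, 360 and 123 normalized counts in PBS_1d, 30.1, 43.6 and 62.8 in MC_1d and 0, 0.849 and 0 in MC_6d. It was still 4.84-fold below PBS on day 1 but was left with 1 read in the 3 fish of day 6, a ratio between the days of 161 (counting interval 29.0 to 6540; adjusted p = 0.00011, edgeR). DN87142_c9_g1_i1 had 55.7, 113, 106 and 103 normalized counts in PBS_1d, 14.5, 20.1 and 13.3 in MC_1d and no read in MC_6d. Its level on day 6 was at least 19.6-fold lower than on day 1 (adjusted p = 0.000517, edgeR).

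**Figure D3:**
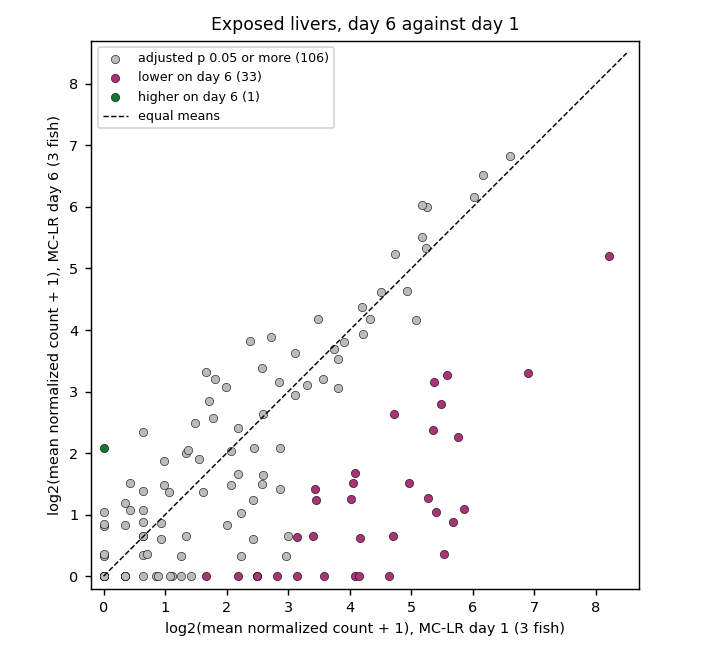
Mean level of each member on day 6 against day 1, as log2(mean normalized count + 1) over 3 MC-LR fish each, with the dashed line at equal means. The 33 members called lower on day 6 lie below the line, several of them on the axis where no read was left, the 1 called higher lies on the vertical axis without a read on day 1, and the 106 others are grey.

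Members without reads made up a second pattern. No read was found on day 1 in 23 members (16.4%) and on day 6 in 37 (26.4%). Of these, 16 had none on either day, 21 none on day 6 only and 7 none on day 1 only. Without a read on days 1 and 6 were 8.25% and 18.9% of all 679 contigs, raised ones included. For the 342 contigs lowered on all 3 days the shares were 9.65% and 26.6%. Means under 1 normalized count were found for 46 members on day 1 and 63 on day 6. Per fish, 53, 29 and 69 members had no read in MC_1d fish 1 to 3 and 57, 63 and 66 in MC_6d fish 1 to 3, while every member had reads in every PBS fish. MC_1d fish 2, with the fewest such members, also had the largest size factor of its group, and the part of depth in this count was not tested.

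Of the members without a read on day 6, the most abundant in PBS fish was DN104600_c3_g1_i1, with 146, 407, 848 and 114 normalized counts there. A single read, in MC_1d fish 2, was its whole count in the exposed fish, and its level on day 6 was at least 466-fold lower than in PBS fish. DN101609_c2_g2_i3 had 248, 215, 247 and 138 normalized counts in PBS_1d, 36.3, 34.4 and 1.21 in MC_1d and no read in MC_6d. It was thus lost between the days, at least 29.5-fold lower on day 6 than on day 1 (adjusted p = 0.000745, edgeR), although MC_1d fish 3 was already near 0. DN99723_c8_g1_i2 had 320, 66.2, 75.4 and 271 normalized counts in PBS_1d, 2.07, 11.7 and 0 in MC_1d and no read in MC_6d. Its difference between the days, at least 5.66-fold, had an adjusted p of 0.0289 in edgeR. The adjusted p rose to 0.262 without MC_1d fish 2, which held most of its reads on day 1. It was 0.0637 with the exposed fish alone, and 0.0784, 0.0782 and 0.0858 without MC_6d fish 1, 2 and 3.

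Another isoform of the same Trinity gene, DN99723_c8_g1_i1, had 145, 22.4, 44.1 and 136 normalized counts in the PBS fish and no read in any exposed fish. PBS fish 1 and 4 were the high fish in both isoforms. DN80587_c5_g1_i3 had 55.7, 106, 102 and 51.2 normalized counts in PBS_1d and none in the 6 exposed fish, at least 78.4-fold lower on day 1 and 96.9-fold lower on day 6. DN93885_c3_g2_i5 had 31.2, 10.7, 148 and 10.8 in PBS_1d and none in the exposed fish. Its control level rested mostly on PBS fish 3.

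A small number of members kept a measurable level. Of the 140 members, 19 had a mean of at least 10 normalized counts on both days. This held for 45 of the 342 contigs lowered on days 1, 6 and 9 and for 261 of all 679, raised ones included. The members called lower had a median of 1.05 on day 6, so this choice leaves out most of them and largely set the test results. One of the 19 members, DN78621_c4_g5_i3, was lower on day 6, and the other 18 did not pass the test. Their log2 differences ran from -0.95 to 0.88 with standard errors of 0.53 to 1.00, and their lowest adjusted p was 0.321 (edgeR), which does not show that their levels were equal on the 2 days. One of the 18, DN94519_c0_g1_i3, singled out after its values were seen, was called higher on day 6 when MC_1d fish 3 was left out (log2 difference 2.10 ± 0.71 SE; adjusted p = 0.0352, edgeR), against 0.78 ± 0.71 (SE; adjusted p = 0.457) with all fish. Its normalized counts were 6.22, 22.6 and 82.1 in MC_1d and 26.1, 91.7 and 71.0 in MC_6d. The medians of these 18 were 199 normalized counts in the PBS fish, 27.5 on day 1 and 23.6 on day 6, or 6.28-fold and 5.72-fold below PBS in the median. DN99831_c6_g1_i5 was one of them, with 319, 627, 328 and 359 normalized counts in PBS_1d, 66.4, 78.8 and 47.1 in MC_1d and 67.7, 55.2 and 89.2 in MC_6d. Its fish of days 1 and 6 overlapped, and the log2 difference was 0.14 ± 0.54 (SE; adjusted p = 0.920, edgeR). For DN108894_c4_g1_i1 it was 0.23 ± 0.53 (SE; adjusted p = 0.813, edgeR).

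A single member was called higher on day 6 than on day 1. DN80999_c9_g2_i3 had 23.4, 14.3, 21.6 and 36.9 normalized counts in the PBS fish, no read in MC_1d and 3.08, 3.40 and 3.30 in MC_6d, from 4 reads in each fish. Its level on day 6 was at least 3.24-fold higher than on day 1 (adjusted p = 0.0146, edgeR) and still 7.38-fold below PBS. The adjusted p was 0.0571 without MC_1d fish 2 and 0.132 when the exposed fish were fitted alone.

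The members varied among themselves in how even the control fish were. The coefficient of variation over the 4 PBS fish had a median of 0.447 and ran from 0.0653 to 1.42, beside a median of 0.454 over all 679 contigs and 0.400 over the 342 contigs lowered on all 3 days. It was above 1 in 10 members (7.14%), in 10 of the 342 (2.92%) and in 57 of the 679 (8.39%). The largest belonged to DN109797_c6_g3_i1, with 24.4, 16.1, 81.3 and 426 normalized counts in PBS_1d, 12.4, 6.71 and 1.21 in MC_1d and 0.769, 0 and 0 in MC_6d. PBS fish 4 was 26.5-fold above PBS fish 2, and the difference between days 6 and 1 did not pass (adjusted p = 0.0544, edgeR), but passed without any 1 of the PBS fish (0.0241 to 0.0429), without MC_1d fish 3 (0.0459) and with DESeq2 (0.0286). DN85273_c2_g4_i2 had 39.1, 36.7, 19.6 and 297 normalized counts in PBS_1d, 10.4, 3.35 and 1.21 in MC_1d and 8.46, 6.79 and 13.2 in MC_6d. Without PBS fish 4 its controls would run from 19.6 to 39.1, and all 3 remaining PBS fish still lay above every exposed fish. Over the members, PBS fish 1 to 4 were the highest control fish in 30, 27, 35 and 48 cases.

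**Figure D4:**
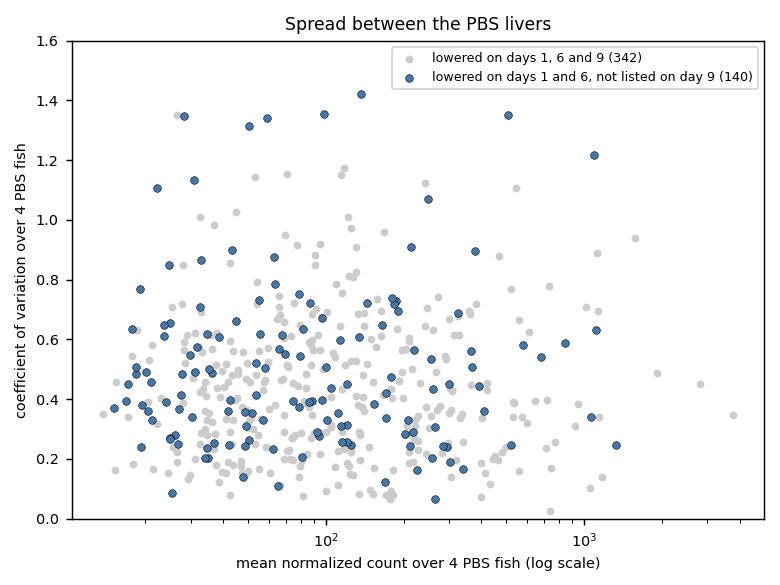
Coefficient of variation over the 4 PBS fish against the mean normalized count in those fish (log scale), for the 140 members in blue and the 342 contigs lowered on days 1, 6 and 9 in grey. The clouds overlap across the range, and 10 points of each list lie above 1.

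Set beside the 342 contigs lowered on all 3 days, the members were of somewhat lower abundance. The median PBS level was 76.6 in the members and 94.8 normalized counts in the 342, and the medians in exposed fish were 3.61 and 4.81 on day 1 against 1.32 and 1.39 on day 6. The median log2 ratios to PBS were -4.25 and -4.22 on day 1 and -5.19 and -5.52 on day 6. No read was found on day 1 for 16.4% of the members and 9.65% of the 342, and the shares without one on day 6 were 26.4% and 26.6%. In the test of day 6 against day 1, 26.0% of the 342 were called lower. Their day 6 mean was below that of day 1 in 260, above it in 60, and 22 had no read on either day. For the members these counts were 77, 47 and 16. The median log2 difference between the days was -1.64 in the 342 and -0.26 in the members. The median of the members was 0 with scaling by clean reads or TMM, and that of the 342 under these scalings is not given here. The lists share their control fish and were formed on the contrasts with PBS, so these values are descriptive. No difference between the lists was tested. For the 51 contigs lowered on day 1 alone, the median level was 43.4 normalized counts in PBS fish and 2.22 in MC_1d.

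The members came from 135 Trinity genes, of which 5 held a pair of members, and from 130 components. What the rule did not use was the behaviour of other contigs of the same Trinity genes. In 20 of the 135 genes, 26 further contigs were listed on some day: 7 on day 1, 25 on day 6 and 13 on day 9. All of these were lowered on each day they were listed, whereas 50.2%, 66.1% and 62.0% of the contigs in the 3 tables were lowered. Isoforms share sequence, so the split of reads between them is uncertain and they are not independent of the members. Of the 13 listed on day 9, 12 were also listed on day 6 and 7 on day 1. On the common scale, 8 of the 13 had more than 3 reads on day 9 and were 7.43-fold to 46.1-fold below PBS, with a median of 14.4. For 13 of the 140 members, then, another contig of the Trinity gene was listed as lowered on day 9.

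In the Trinity gene of the most abundant member, DN78621_c4_g5, the contig i2 was listed on day 9 only. It had 422, 182, 90.1 and 0.899 normalized counts in the PBS fish and no read in the 3 fish of day 9, where it was at least 277-fold lower. PBS fish 4 had almost none of it, while its level of the member i3 was 932. DN99831_c6_g1_i6 had 20.5, 18.8, 9.80 and 22.5 normalized counts in PBS_1d, no read on day 6 and 1.31, 0 and 0 on day 9. The member of that gene, i5, kept a mean of 70.7 normalized counts on day 6. Within this gene, then, the less abundant isoform was at 0 in fish in which the more abundant one was readily counted.

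Both members of DN114523_c1_g1 fell between the days: i6 had 104, 11.6, 170 and 102 normalized counts in PBS_1d, 2.07, 7.55 and 8.45 in MC_1d and no read in MC_6d, at least 7.41-fold lower (adjusted p = 0.0133, edgeR). Like i1, its lowest PBS fish was fish 2. The 2 members of DN84417_c2_g1 did not pass between the days. Its isoform i22 had 610, 342, 397 and 112 normalized counts in PBS_1d, 50.8, 47.0 and 12.1 in MC_1d and 26.9, 26.3 and 64.4 in MC_6d (log2 difference 0.09 ± 0.69 SE; adjusted p = 0.979, edgeR). Its isoform i26 had 188, 201, 227 and 65.6 in PBS_1d, 0, 14.3 and 2.41 in MC_1d and 8.46, 17.0 and 15.7 in MC_6d (1.22 ± 0.96 SE; adjusted p = 0.373, edgeR). A further isoform, i12, was listed on day 6 only, with 195, 73.4, 119 and 12.6 normalized counts in PBS_1d and 13.8, 6.79 and 9.08 in MC_6d. PBS fish 4 was the lowest control fish in all 3 isoforms of this gene.

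**Figure D5:**
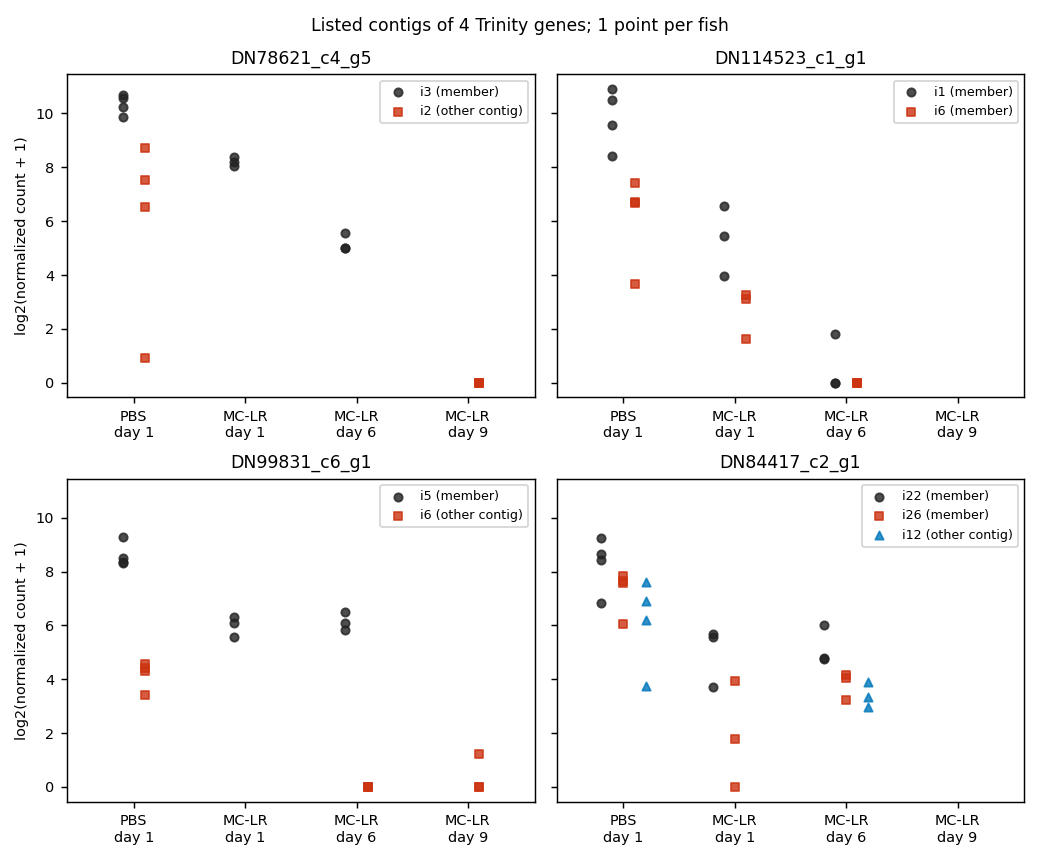
Levels of every listed contig of 4 Trinity genes, as log2(normalized count + 1) with 1 point per fish; an empty place means that the contig was not listed on that day. Contig i2 of DN78621_c4_g5 had no read on day 9, both members of DN114523_c1_g1 reached or neared 0 on day 6, i6 of DN99831_c6_g1 was at 0 on day 6 while i5 was not, and the 3 isoforms of DN84417_c2_g1 were lowest in the same PBS fish.

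Day 9 levels of the members themselves were not analysed here, since the table of that day lists other contigs. Absence from it means only that a contig was not among those with an adjusted p under 0.001 in the authors' test, not that it had returned to the control level. Among the 12 contigs of the members' Trinity genes listed on both later days, the mean of day 9 was above that of day 6 in 9 and below it in 2, and 1 had no read on either day. Of the 342 contigs lowered on all 3 days, 284 (83.0%) had a higher mean on day 9 than on day 6. On day 6, 143 of the 342 had a mean under 1 normalized count, and 91 had no read. The 342 were chosen as lowered on day 6, the share over all contigs is not given here, and the rise was not tested. Scaling by clean reads would raise day 9 against PBS by 0.53 and day 6 by 0.14 on the log2 scale.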

How the data were processed

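Liver RNA (poly(A)-selected, stranded libraries) was sequenced from 13 fish, grouped by GEO's labels. Per the authors' notes, Trimmomatic 0.36 served for read trimming, RSEM for an abundance filter on the de novo contigs and SAMtools for counting. The raw counts per contig and fish were deposited without normalization for the contigs of their DESeq2 1.28.0 comparisons at an adjusted p under 0.001. The deposited signal is the mean of the counts divided by the authors' size factors over a comparison's 7 fish. It was used to recover the size factors, and the recovered factors returned it within a relative error of 5.72e-15. The log2 fold changes, standard errors, statistics and p-values of the authors' comparisons are also in the tables and were not used.

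Here edgeR 4.0.16 (R 4.3.3; estimateDisp, glmQLFit with robust estimation, glmQLFTest) was fitted to the 10 fish of PBS_1d, MC_1d and MC_6d and the 679 contigs listed on days 1 and 6, and the p-values were adjusted over these 679. The contigs were selected by the authors' tests on the same fish. Alternatives were scaling by clean reads or TMM, DESeq2 1.42.0, a filter of 10 counts in 3 fish, the exposed fish alone, a replicate block, 1 in place of 0.5 added to group means, and leaving out each fish. The code was tested on simulated data. The contigs named were the 6 with the highest PBS level, up to 5 called in each direction with the smallest p, 3 without reads on each day, those nearest a ratio of 1, the contigs of 4 Trinity genes, and the 2 with the largest spread in PBS fish. The members and lists were chosen with earlier results of these data known.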

Additional observations from a re-analysis of the deposited data

Results flagged for a closer look

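In 6 named members 1 of the 4 PBS fish stood apart from the other 3 by Dixon's criterion. DN109797_c6_g3_i1 and DN85273_c2_g4_i2 were named for their spread in PBS fish, so this number was partly set by the naming. Chance alone meets the criterion in about 1 in 20 groups of normally distributed values. It was met by PBS fish 4 in DN81567_c9_g4_i1 (3059 normalized counts), DN109797_c6_g3_i1 (426) and DN85273_c2_g4_i2 (297), by PBS fish 3 in DN93885_c3_g2_i5 (148), by PBS fish 2 in DN99831_c6_g1_i5 (627), and by PBS fish 1, as a low value, in DN87142_c9_g1_i1 (55.7). Over the 140 members it was met in 15 (10.7%), 7 of them with PBS fish 4 high, beside 9.28% of all 679 contigs.

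Members were named in part for a small p in the contrast of day 6 with day 1. That naming partly set how many of the named members passed. Over all 679 contigs, raised ones included, 21.2% were lower on day 6 and 4.71% higher. The level in exposed fish differed between days 1 and 6, by the test of that difference in edgeR, in 11 named members. For those with reads on both days the log2 difference of day 6 from day 1 was -3.04 in DN78621_c4_g5_i3, -5.75 in DN114523_c1_g1_i1, -2.86 in DN109444_c2_g5_i1, -3.74 in DN109362_c4_g1_i1, -5.55 in DN87677_c5_g6_i3 and -6.88 in DN90871_c3_g2_i2. For those without a read on day 6, the log2 difference computed at the limit of 3 reads was -4.88 in DN101609_c2_g2_i3, -4.30 in DN87142_c9_g1_i1, -2.89 in DN114523_c1_g1_i6 and -2.50 in DN99723_c8_g1_i2. In DN80999_c9_g2_i3, without a read on day 1, it was 1.70. The calls of DN99723_c8_g1_i2 and DN80999_c9_g2_i3 did not hold under every alternative.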

How the results depend on the processing

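The number of members lower on day 6 was 33, against 23 with clean reads, 23 with TMM, 35 with DESeq2, 33 after the filter on low counts, 22 with the exposed fish alone and 22 to 34 with 1 fish left out, and 22 without MC_1d fish 2 or MC_6d fish 1. In all 17 fits the same 17 members were called lower. The number higher was 1, but 0 with the exposed fish alone and 1 to 2 with 1 fish left out. Members with every fish of day 6 above every fish of day 1 went from 3 to 8 with clean reads. The median log2 ratio to PBS on day 6, -5.19, was -4.44 with 1 added to each mean and -5.35 to -5.01 with 1 fish left out, and on day 1 it was -4.51 to -4.20. Of the 140 members, 137 had a log2 ratio below -2 on both days.

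Replicate numbers gave no sign of pairing: the correlations of same-numbered fish ran from -0.0931 to 0.108 over 9 pairs. With the replicate number as a block, 32 members were lower on day 6 and 0 higher.

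The differences between days of DN99831_c6_g1_i5, which did not pass, changed sign without MC_1d fish 3 (-0.039) or MC_6d fish 3 (-0.063), within a range of -0.063 to 0.32 with 1 fish left out. Those of DN84417_c2_g1_i22 did so without the same fish (-0.32 and -0.46), within -0.46 to 0.39. Over the differences between days of the 19 named contigs tested, 284 values under an alternative kept their direction and side of the threshold, 8 lost and 7 gained a call, and 4 changed sign. The causes were not tested. Contigs under 1 normalized count rest on 3 reads or fewer in a group, which limits every statement on them.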
